A study of Mus musculus with 48 samples.

Results

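Gene expression was compared directly between 2 compounds, cyproheptadine and diacylglycerol kinase inhibitor II (DKI), each given at 10 µM for 24 h to STHdhQ111 cells. The 6 samples (3 per compound) were taken by their treatment labels out of 48 in the series, and no expression value was used to choose them. STHdhQ111 is a single, conditionally immortalized mouse striatal progenitor line, homozygous for a knock-in of mutant huntingtin, so every group described here shares that allele and that line. Cells were kept at 33 °C in medium with 10% serum and were then moved to serum-free medium containing a compound or vehicle. Vehicle-treated STHdhQ111 cells (3 samples) gave the background level, and loxapine and meclizine (10 µM, 3 samples each) were used for 1 further comparison. Cyproheptadine and loxapine belong to Group A and DKI and meclizine to Group B, groups that were drawn up from metabolite profiles. Same-numbered cyproheptadine and DKI samples were collected in the same slot: replicates 1 on day 3 at time 1, replicates 2 on day 2 at time 2 and replicates 3 on day 3 at time 3. Vehicle replicates 2 and 3 shared those slots, whereas vehicle replicate 1 came from day 1.

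Cyproheptadine is an antihistamine that also blocks serotonin receptors. DKI inhibits diacylglycerol kinases, the enzymes that convert the lipid messenger diacylglycerol to phosphatidic acid. Several pathways named here are controlled through transcription. When membrane cholesterol is low, the SREBP transcription factors are cut free from the endoplasmic reticulum (ER) and switch on the genes of sterol and fatty acid synthesis. In the integrated stress response, phosphorylation of eIF2α slows general translation while the transcription factor ATF4 is made and raises genes of amino acid uptake and synthesis, tRNA charging and stress signalling.

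All values are deposited log2 normalized abundances, so a difference of 1 is a 2-fold change and levels are not compared between genes. Depth per sample is unknown because the values are not counts. Of 13409 genes tested, 3834 (28.6%) differed between the compounds at an FDR-adjusted p-value below 0.05 by limma: 1867 were higher with cyproheptadine (13.9%) and 1967 lower (14.7%). The differences were mostly small. Their median size among called genes was 0.28, and 38 genes were higher and 27 lower by more than 1. All 3 same-numbered pairs had the same sign for 97.9% of called genes, against 56.0% of all genes tested. The values of the 2 compounds did not overlap for 5232 genes, 39.0% of all genes tested. Pearson r over genes was 0.998 to 0.9991 between samples of one compound and 0.9946 to 0.9967 between compounds. In bulk RNA, fewer cells of a type and less RNA per cell cannot be told apart. The p-values rest on the spread between samples of a condition, pooled over all 48 samples of the series, which may be partly technical.

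The progenitor label was checked on marker genes. Vim, an intermediate filament of progenitors, stood at 14.79 to 15.18 over the 6 samples, Nes at 4.67 to 5.06 and Sox2 at 4.42 to 4.88. In all, 8 of 11 progenitor markers passed the minimum level, and 3 of them had a mean of at least 6. That share was close to the one of all genes with a symbol (13409 of 18178), so the count does not speak for the label. Among 14 striatal and neuronal markers 5 passed, and Rbfox3, Snap25, Syt1, Drd1 and Bcl11b were not tested. Among other cell types, Gfap and Aif1 were likewise not tested, and Aqp4, Olig2, Sox10 and Cldn5 had no entry in the deposited data. Pdgfra (8.75 to 9.1) and Cspg4 (8.51 to 9.05) of the oligodendrocyte lineage and Slc1a3 (6.51 to 6.82) of astrocytes were present in both groups. So were Col1a1 (13.63 to 14.21), Ptprc (9.83 to 10.92) and Pecam1 (7.77 to 9.33). Of 4 oligodendrocyte lineage markers tested, 2 were higher with cyproheptadine and 1 lower, and none of 4 astrocyte markers was called. Cyproheptadine minus DKI was 0.36 for Col1a1 (adjusted p = 0.021), the only 1 of 5 mesenchymal markers tested that was called, with Pdgfrb at -0.02 and Acta2 at -0.21. Col1a1 was not called in 6 of the fits that left out a sample or a pair (adjusted p up to 0.153), among them those without cyproheptadine replicate 1 or 2 or DKI replicate 1. Neither Ptprc (0.03) nor Pecam1 (0.70) passed the test. Of 3 microglial and leukocyte markers tested, Tmem119 (0.50) and Csf1r (0.24) were higher with cyproheptadine. Csf1r stood at only 1.9 to 2.23, close to the minimum mean of 1. Tmem119 (6.59 to 7.56) was not called in 2 of the fits that left out a sample or a pair (adjusted p up to 0.122). The summed log2 level of that list was 10.16 to 11.05 with cyproheptadine and 10.04 to 10.78 with DKI. Mesenchymal markers summed to 14.53 to 14.71 and 14.20 to 14.44. The part of such cells in the differences was not tested.

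Cholesterol synthesis genes separated the compounds most. Of 9 genes of the mevalonate pathway, which builds sterol precursors from acetyl-CoA, 8 were higher with cyproheptadine and none lower, and the median difference was 1.30, against -0.0076 over all genes tested. All 13 genes from squalene to cholesterol were higher, with a median of 1.14. Relative to vehicle the pathway lay on both sides of the control level. With cyproheptadine, 8 of 9 mevalonate genes and 13 of 13 later genes were higher than in vehicle, where 17.5% of all genes tested were higher and 18.2% lower. With DKI, 8 of 9 and 10 of 13 were lower, where 20.4% of all genes were higher and 21.9% lower. The median differences from vehicle were 0.54 and 0.53 with cyproheptadine and -0.72 and -0.47 with DKI, and both comparisons used the same 3 vehicle samples.

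**Figure D1:**
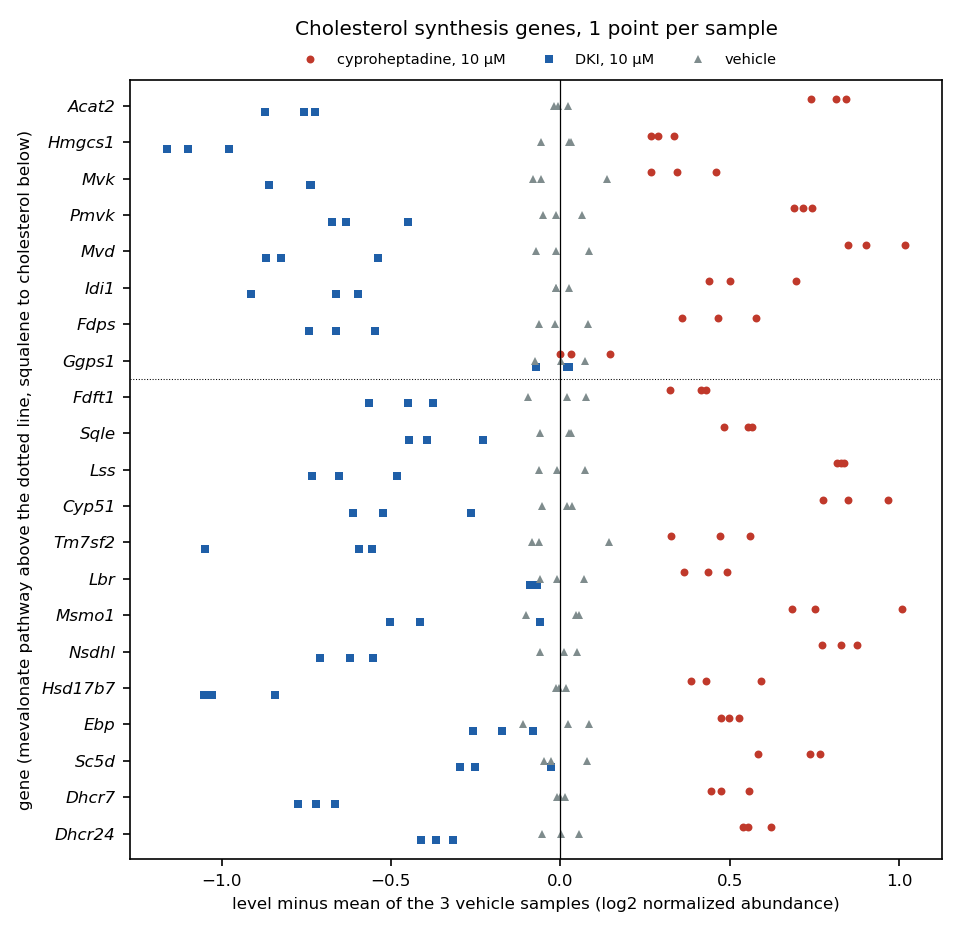
Level of 21 cholesterol synthesis genes in each cyproheptadine, DKI and vehicle sample (1 point per sample), as the log2 normalized abundance minus the mean of the 3 vehicle samples on the x axis. Cyproheptadine points lie above the vehicle mean and DKI points below it for each gene except Ggps1, where the groups overlap.

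The order of the pathway can be followed gene by gene. Acat2, which joins acetyl-CoA units for the first step, stood at 12.031, 11.929 and 12.001 with cyproheptadine, 10.43, 10.46 and 10.32 with DKI and 11.21, 11.18 and 11.17 with vehicle. The groups did not overlap, and the difference was 1.58 ± 0.09 (SE, adjusted p = 3.2e-16). Hmgcs1, the cytosolic HMG-CoA synthase, stood at 12.71, 12.66 and 12.64 with cyproheptadine against 11.40, 11.27 and 11.21 with DKI. Its vehicle values of 12.40, 12.40 and 12.32 lay closer to cyproheptadine, with 0.29 for cyproheptadine minus vehicle and -1.08 for DKI minus vehicle.

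Mvd, the decarboxylase that makes isopentenyl diphosphate (GRCm38 chr8:122433601-122443422), had the largest difference of all genes tested at 1.67 ± 0.10 (adjusted p = 4.8e-15). Its values were 10.81, 10.75 and 10.92 with cyproheptadine and 9.37, 9.04 and 9.08 with DKI. Another annotated gene, Gm20388, overlaps Mvd on the opposite strand, and how strand entered the counting is not given in the sources used here. Ggps1 was the only mevalonate-list gene that was not called; it leads to geranylgeranyl groups and not to sterols, and its difference was 0.07 (95% confidence interval -0.05 to 0.19). Past squalene, Lss (1.45), Nsdhl (1.45), Hsd17b7 (1.44) and Cyp51 (1.33) showed the largest differences, and Lbr (0.51) the smallest. Lbr, Ebp and Sc5d were higher with cyproheptadine than with vehicle but were not called between DKI and vehicle (-0.08, -0.17 and -0.20).

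The promoters of 2 genes of this pathway are shown, because they belong to genes that differed by more than 1.3 and hold elements known from SREBP-regulated promoters. They are the 250 bases before the RefSeq start (GRCm38.p6), Hmgcs1 at chr13:119690101-119690350 on the plus strand and Nsdhl at chrX:72918271-72918520 on the plus strand. Capitals mark an SREBP-type element (TCACNCCAC) and CCAAT boxes, bound by NF-Y, on either strand, and no marked match overlapped another.
Hmgcs1: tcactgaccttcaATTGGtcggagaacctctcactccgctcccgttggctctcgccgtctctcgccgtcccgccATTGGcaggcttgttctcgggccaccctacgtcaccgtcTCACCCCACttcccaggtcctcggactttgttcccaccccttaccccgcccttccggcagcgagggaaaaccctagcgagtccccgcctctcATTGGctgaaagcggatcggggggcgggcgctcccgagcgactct
Nsdhl: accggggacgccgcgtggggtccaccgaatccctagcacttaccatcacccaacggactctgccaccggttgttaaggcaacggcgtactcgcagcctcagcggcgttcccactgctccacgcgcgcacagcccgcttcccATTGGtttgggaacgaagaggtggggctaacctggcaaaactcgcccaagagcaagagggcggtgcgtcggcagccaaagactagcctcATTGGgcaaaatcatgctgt
A CCAAT box was found for 6 of the 7 mevalonate genes with a RefSeq promoter and for 10 of the 10 squalene-to-cholesterol genes. It was found for 37.5% of all 27025 genes with a RefSeq promoter and in 33.8% of all 32851 promoters. The SREBP-type element was found for Hmgcs1 alone among these 17 genes and for 1.2% of all genes with a RefSeq promoter. These matches describe the sequence and not the binding of a factor.

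Genes of sterol sensing and transport differed in part. Insig1, which holds SREBP in the ER, stood at 13.03, 12.87 and 12.90 with cyproheptadine, 11.62, 11.31 and 11.43 with DKI and 11.99, 12.14 and 12.04 with vehicle (difference 1.48 ± 0.10, adjusted p = 3.7e-14). Stard4, a cytosolic sterol carrier, differed by 1.02 and Srebf2, which encodes the sterol-regulating SREBP, by 0.38. In all, 7 of 13 genes in this list were higher and 2 lower. Those lower were the proteases that release SREBP, Mbtps2 (-0.39) and Mbtps1 (-0.15). Npc1, the lysosomal cholesterol exporter, rose by 0.42 over vehicle with each compound and differed between them by less than 0.01 (95% interval -0.14 to 0.14). Among 6 sterol efflux genes only Apoe passed the test (-0.43), but 4 were lower without DKI replicate 1 or without both replicates 1. Abca1, the main cholesterol exporter of the cell surface, gave -0.18 (-0.54 to 0.18).

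Fatty acid synthesis genes moved the same way. Of 15 genes tested, 13 were higher with cyproheptadine and none lower, with a median of 0.63. Acss2, which makes acetyl-CoA from acetate, stood at 8.14, 8.27 and 8.22 with cyproheptadine and 6.83, 7.05 and 6.79 with DKI (1.32 ± 0.11, adjusted p = 4.0e-12). Acsl3, an acyl-CoA synthetase, differed by 1.19, the desaturase Scd2 by 1.02, and Acly, which makes cytosolic acetyl-CoA from citrate, by 0.96. Both acetyl-CoA carboxylases, Acaca (0.10) and Acacb (-0.14), did not pass the test.

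**Figure D2:**
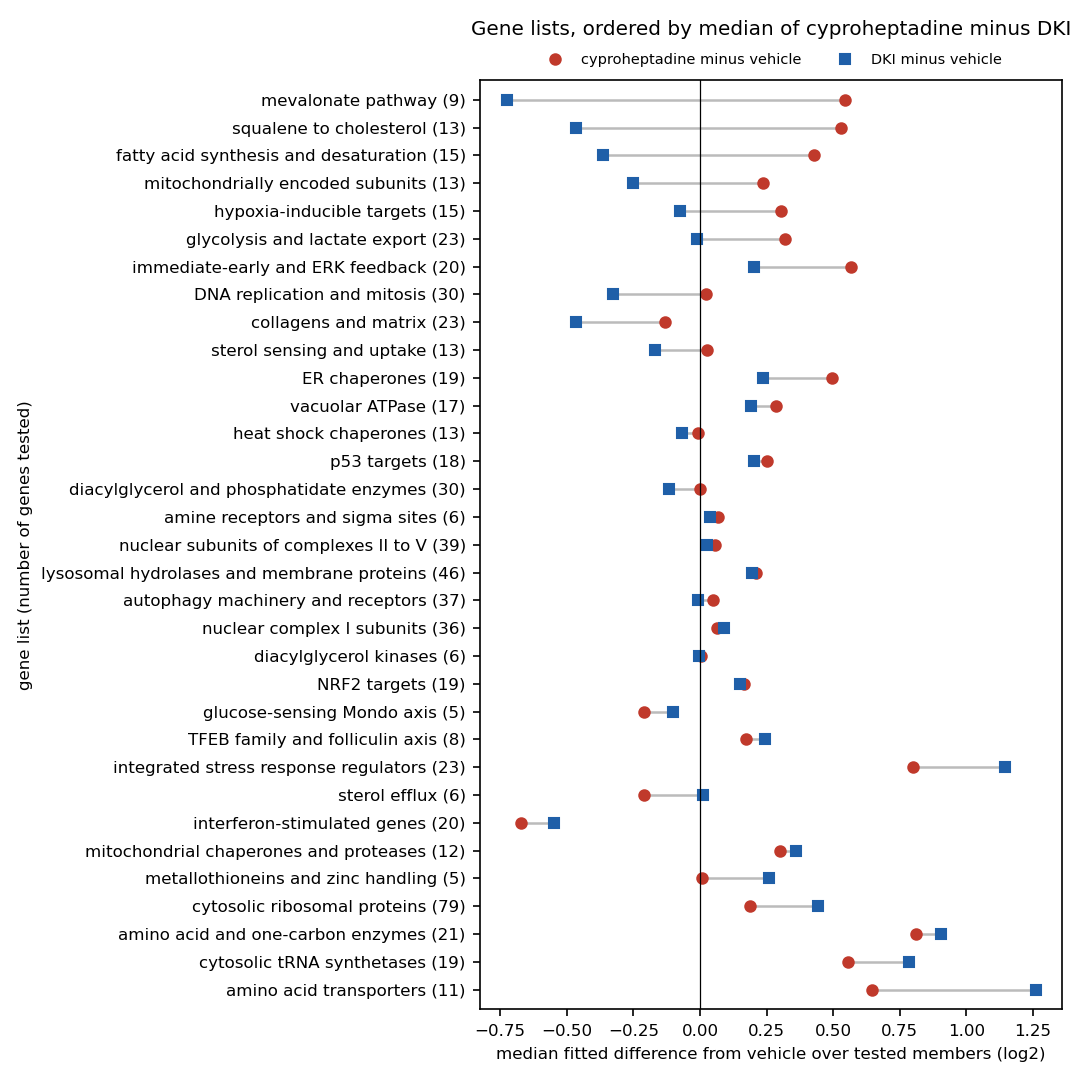
Median fitted difference from vehicle (x axis, log2) over the tested members of each of 33 gene lists, for cyproheptadine (circles) and DKI (squares), ordered by the median of cyproheptadine minus DKI; both use the same vehicle samples. The sterol lists lie on opposite sides of 0 (mevalonate pathway 0.54 and -0.72), whereas the stress response lists lie on the right for each compound (regulators 0.80 and 1.14).

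Diacylglycerol kinases, the enzymes DKI is named for, had an entry in the deposited data for all 10 family members, and 6 passed the minimum level and were tested. Dgkd stood at 8.984, 8.997 and 9.077 with cyproheptadine, 9.56, 9.30 and 9.59 with DKI and 9.05, 9.06 and 8.99 with vehicle. Its DKI samples lay above all others, and the difference was -0.46 ± 0.07 (adjusted p = 5.3e-06). Dgke was higher with cyproheptadine (0.25, adjusted p = 0.0027). Dgka passed narrowly in the other direction (-0.25, adjusted p = 0.0496) and was not called in any fit that left out 1 of the 6 samples (adjusted p = 0.0609 to 0.135). Dgkq (0.03), Dgkz (-0.03) and Dgkh (-0.06) did not pass, with 95% intervals of -0.14 to 0.19, -0.16 to 0.09 and -0.21 to 0.09.

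Among 30 other enzymes of diacylglycerol and phosphatidate metabolism, 9 were higher with cyproheptadine and 2 lower. Lpin1, a phosphatidate phosphatase that makes diacylglycerol, led them at 9.76, 9.82 and 9.78 against 8.79, 8.68 and 8.66 with DKI (1.07 ± 0.07, adjusted p = 2.2e-14). Pcyt2 (0.93) and Pcyt1a (0.41), of phosphatidylethanolamine and phosphatidylcholine synthesis, and Cds1 (0.41), which makes CDP-diacylglycerol, came next. Hrh1, the histamine H1 receptor that cyproheptadine blocks, stood at 1.05 to 1.18 in all 6 samples, close to the minimum mean of 1. It did not pass (-0.06, 95% interval -0.14 to 0.01), and a level this low cannot show whether the receptor changed. In the same list of receptors, 2 of 6 genes tested were higher with cyproheptadine. One of them, Tmem97, an ER membrane protein, differed by 0.47 and lay above vehicle with both compounds (0.84 and 0.36).

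Most integrated stress response genes rose with both compounds, and part of them rose further with DKI. Relative to vehicle, 20 of 23 regulators were higher with cyproheptadine and 19 of 23 with DKI. Between the compounds 10 were lower with cyproheptadine, 1 was higher and 12 were not called. Atf4 belonged to the last group. It stood at 12.19, 12.21 and 12.24 with cyproheptadine, 12.45, 12.02 and 12.23 with DKI and 10.81, 10.95 and 10.97 with vehicle. It rose over vehicle by 1.30 and 1.32, and the difference between the compounds was -0.02 (95% interval -0.20 to 0.16). Chac1 (-0.17, 95% interval -0.46 to 0.12), Fgf21 (-0.03, -0.16 to 0.11), Nupr1 (-0.04, -0.26 to 0.18) and Ddit4 (0.13, -0.03 to 0.29) did not pass either.

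Other members lay well apart. Ddit3, which encodes the transcription factor CHOP, stood at 9.85, 9.96 and 10.13 with cyproheptadine, 11.12, 10.77 and 10.90 with DKI and 8.99, 9.03 and 9.08 with vehicle (-0.95 ± 0.12, adjusted p = 2.0e-07). Ppp1r15a, whose product GADD34 directs dephosphorylation of eIF2α, showed the same order of groups (-1.02), as did Stc2, a secreted glycoprotein (-1.17), Trib3, a pseudokinase that restrains ATF4 and CHOP (-0.85), and Cebpb (-0.71). The groups did not overlap for any of these 5 genes, and cyproheptadine and DKI values did not overlap for 39.0% of all genes tested. Ddit3 is overlapped on its own strand by another annotated gene of the same name, and reads could be divided between them. Eif2ak3, which encodes the eIF2α kinase PERK, was the 1 regulator higher with cyproheptadine (0.50), and it lay above vehicle with cyproheptadine (0.32) and below it with DKI (-0.18).

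**Figure D3:**
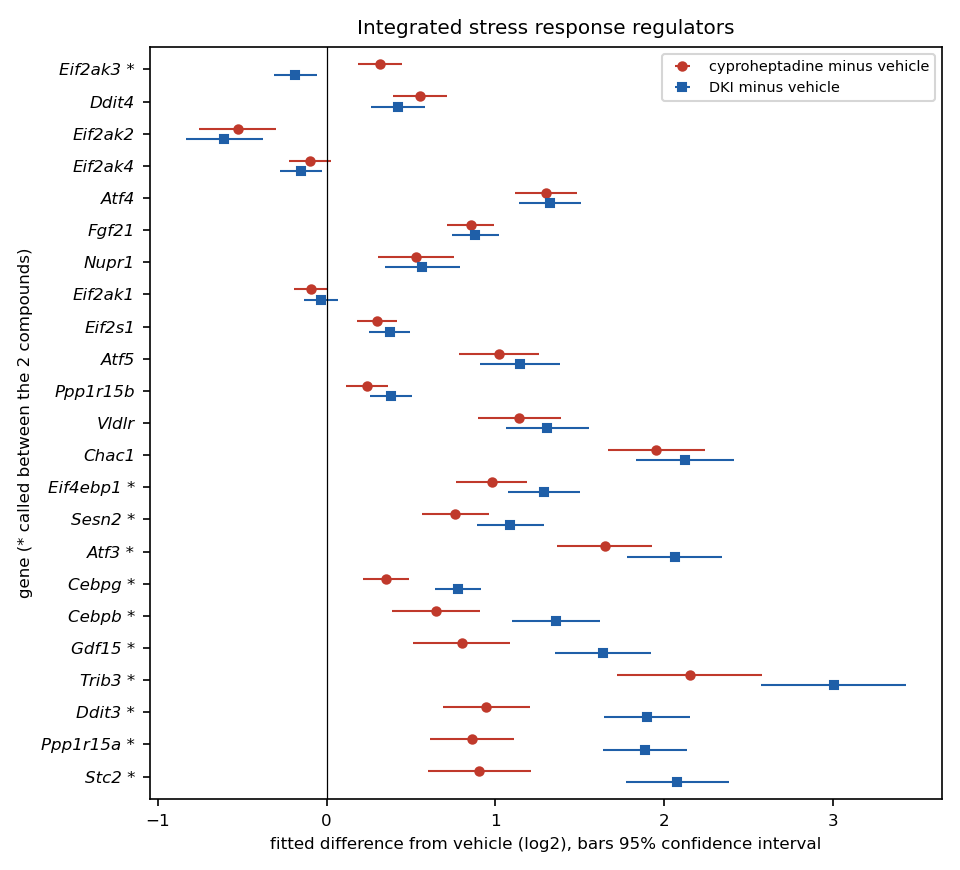
Fitted difference from vehicle (x axis, log2, bars 95% confidence interval, 3 samples per group) for 23 regulators and targets of the integrated stress response, cyproheptadine as circles and DKI as squares, with an asterisk on genes called between the compounds. Intervals of both compounds overlap for Atf4, Fgf21 and Chac1 and lie apart for Ddit3, Ppp1r15a and Stc2.

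Amino acid genes showed the same partial split. Transporters were lower with cyproheptadine for 8 of 11 genes, enzymes of amino acid and one-carbon metabolism for 12 of 21 and cytosolic tRNA synthetases for 11 of 19, and none of these was higher. The medians were -0.47, -0.27 and -0.30. Slc3a2, the heavy chain that carries several amino acid exchangers to the membrane, stood at 11.77, 11.82 and 11.74 with cyproheptadine, 13.53, 12.83 and 12.99 with DKI and 10.85, 10.82 and 10.84 with vehicle (-1.34 ± 0.15, adjusted p = 4.2e-09). Its partner in cystine uptake, Slc7a11, differed by -0.93, and both lay above vehicle with both compounds. Cth, which makes cysteine from cystathionine, stood at 6.63, 6.84 and 6.94 against 8.12, 7.68 and 7.88 with DKI (-1.09). Psat1 of serine synthesis (0.06, -0.09 to 0.20) and Slc1a5, a glutamine transporter (-0.04, -0.20 to 0.12), did not pass, although each lay above vehicle with both compounds. Among the synthetases Wars (-0.75) and Eprs (-0.52) led, and Aars (-0.06) and Cars (-0.07) did not pass.

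The split was widest between replicates 1. DKI replicate 1 held the highest value of the DKI samples for Slc3a2, Slc7a11, Cth, Ddit3 and Atf4 alike. The median of the 3 amino acid lists in the pair of replicates 1 was -0.80 for transporters, -0.53 for enzymes and -0.52 for synthetases, against -0.14, -0.10 and -0.17 in replicates 2 and -0.48, -0.13 and -0.15 in replicates 3. Without replicates 1 of both compounds the calls fell from 8 to 4, from 12 to 4 and from 11 to 5. Without DKI replicate 1 alone they fell to 7, 6 and 7, and without cyproheptadine replicate 1 the enzymes fell to 7. The count of lower regulators went from 10 to 7 without both replicates 1, and Slc7a11 was then not called.

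Another 2 promoters are shown because their genes rose with both compounds yet separated differently. Slc7a11 was lower with cyproheptadine than with DKI, and Chac1, a glutathione-degrading enzyme, was not called. The 250 bases before the RefSeq start were read for Slc7a11 at chr3:50443614-50443863 on the minus strand and for Chac1 at chr2:119350992-119351241 on the plus strand. Capitals mark matches on either strand to an ATF4-C/EBP composite element (TGATGNAA), and no marked match overlapped another.
Slc7a11: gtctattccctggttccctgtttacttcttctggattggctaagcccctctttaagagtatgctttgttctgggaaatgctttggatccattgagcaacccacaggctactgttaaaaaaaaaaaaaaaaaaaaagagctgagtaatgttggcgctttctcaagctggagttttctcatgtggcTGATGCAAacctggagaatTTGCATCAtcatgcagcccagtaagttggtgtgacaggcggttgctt
Chac1: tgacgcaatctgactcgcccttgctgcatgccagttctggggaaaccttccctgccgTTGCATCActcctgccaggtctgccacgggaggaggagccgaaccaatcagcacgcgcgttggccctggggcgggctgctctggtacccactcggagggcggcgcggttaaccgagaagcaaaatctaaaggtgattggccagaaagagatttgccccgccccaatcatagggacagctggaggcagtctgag
The element was found for 5 of 21 regulators, 4 of 17 enzymes, 1 of 8 transporters and 3 of 13 synthetases with a RefSeq promoter, and for 3.9% of all genes with one. Slc7a11 held 2 matches and Chac1 held 1.

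ER chaperones went mostly against the amino acid genes. Of 19 tested, 9 were higher with cyproheptadine and 2 lower, and 17 lay above vehicle with cyproheptadine and 11 with DKI. Calr, the calcium-binding chaperone calreticulin, stood at 13.72, 13.48 and 13.46 with cyproheptadine, 13.13, 12.94 and 12.77 with DKI and 12.89, 12.80 and 12.81 with vehicle (0.61 ± 0.08, adjusted p = 1.4e-07). Dnajc3 (0.45), Xbp1 (0.40) and Hsp90b1 (0.37) were also higher. Hspa5, the central ER chaperone BiP, lay above vehicle by 0.93 with cyproheptadine and 1.01 with DKI and did not pass between them (-0.08, -0.25 to 0.09). Mitochondrial chaperones and proteases took the other direction, with 8 of 12 lower and 1 higher: Lonp1 (-0.58), Hspa9 (-0.49), Dnaja3 (-0.45) and Hspd1 (-0.41) led. Without both replicates 1 the count of lower genes was 5.

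Transcripts of energy metabolism differed for glycolysis genes and mitochondrially encoded genes but hardly for nuclear respiratory subunits. These are RNA levels, and the rates of glycolysis and respiration were not measured in these samples. Of 23 glycolysis and lactate export genes, 18 were higher with cyproheptadine and none lower, with a median of 0.36. Pfkl, a phosphofructokinase, stood at 10.46, 10.95 and 10.93 with cyproheptadine, 9.71, 9.77 and 9.93 with DKI and 10.12, 10.07 and 10.21 with vehicle (0.98 ± 0.15, adjusted p = 1.9e-06). Ldha, which reduces pyruvate to lactate, followed at 0.83, then Aldoc (0.68) and Tpi1 (0.66). Hk2, a hexokinase, lay above vehicle by 1.44 and 1.53 and did not pass between the compounds (-0.09, -0.36 to 0.19). Of 36 nuclear genes for complex I none passed at an adjusted p below 0.05 by limma (2 at an unadjusted p below 0.05, and 2 with the replicate number as a block in the 6 samples), and their differences ran from -0.20 to 0.21. Among 39 nuclear genes for complexes II to V only Atp5g3 passed (0.19), and it was not called in 6 of the fits that left out a sample or a pair (adjusted p up to 0.217), among them those without cyproheptadine replicate 1 or 3 and without DKI replicate 1 or 3. With the block 1 gene of that list was higher and 3 were lower.

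Mitochondrially encoded mRNAs were higher with cyproheptadine for 7 of 13 genes and lower for none, with a median of 0.46. With the replicate number as a block in the 6 samples alone, 12 of 13 were called. Without both replicates 1 the count was 2, and in the fits that left out 1 sample it was 5 to 8. mt-Co2, a cytochrome oxidase subunit, stood at 15.77, 15.66 and 15.56 with cyproheptadine, 14.13, 15.24 and 14.36 with DKI and 15.39, 15.11 and 15.21 with vehicle (1.08 ± 0.25, adjusted p = 0.00098). The DKI samples were widely spread, with replicate 2 nearest to cyproheptadine. mt-Atp6 (0.95), mt-Cytb (0.91), mt-Co3 (0.80) and mt-Atp8 (0.72) followed. Without both replicates 1, mt-Co2, mt-Atp6 and mt-Co3 were not called, and mt-Co3 was also lost without DKI replicate 1. None of the 13 was called between cyproheptadine and vehicle, and 4 were lower with DKI than with vehicle.

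Chromosome 1 holds near-identical copies of some of these genes, and reads that match both may have been divided between them. Gm10925 (GRCm38 chr1:24613974-24614651) matched mt-Atp6 at 100% of 678 aligned bases, and Gm28661 (chr1:24614885-24615565) matched mt-Co2 at 100% of 681. When each gene was summed with its copy on the linear scale, the mean difference was 0.72 for mt-Atp6, 0.77 for mt-Co2 and 0.59 for mt-Co3 with Gm28437. The 2 groups still did not overlap for any of these 3 sums, and they did not overlap for 39.0% of all genes tested. The ribosomal RNAs of the mitochondrion, which carry no symbol in the deposited table, ran the other way. mt-Rnr1 stood at 11.29, 11.82 and 11.995 with cyproheptadine and 13.30, 13.30 and 13.17 with DKI, with vehicle at 11.87, 11.42 and 11.85, and the difference was -1.56 ± 0.34 (adjusted p = 0.00057 over all identifiers). mt-Rnr2 did not pass (-0.43, adjusted p = 0.14). The libraries were made from poly(A)-selected RNA, so these 2 RNAs are captured only in part.

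**Figure D4:**
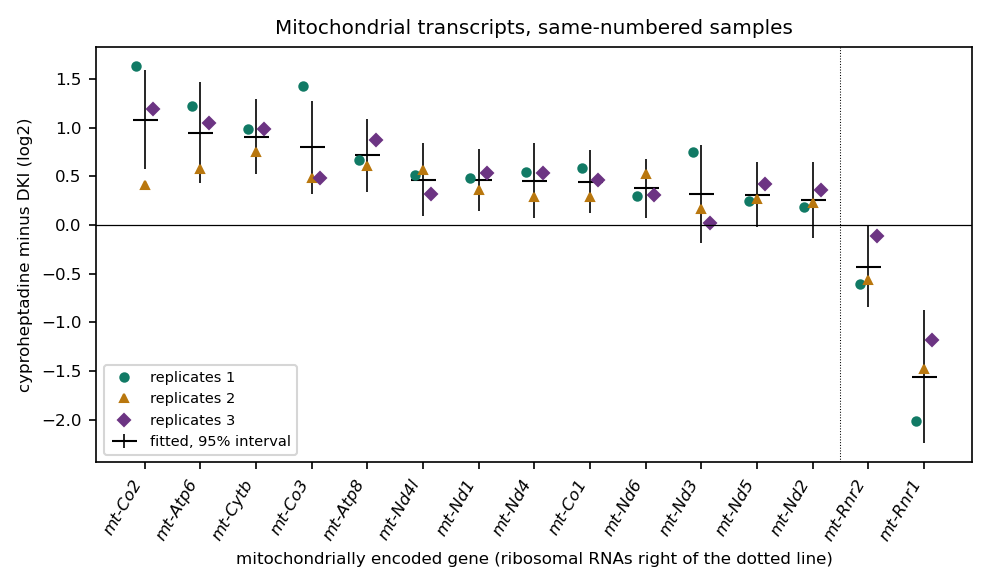
Difference of cyproheptadine minus DKI (y axis, log2) for each same-numbered pair of samples (coloured points) and as fitted with its 95% confidence interval (black), for 13 mitochondrially encoded mRNAs and, right of the dotted line, 2 ribosomal RNAs. Every pair lies above 0 for the mRNAs and below 0 for mt-Rnr1 and mt-Rnr2.

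Cell division genes were lower with DKI. Of 30 replication and mitosis genes, 21 were higher with cyproheptadine than with DKI and 2 lower (Cdt1 at -0.18 and Mcm2 at -0.20), with a median of 0.34. Relative to vehicle 21 were lower with DKI, against 6 lower and 1 higher with cyproheptadine. Rrm2, a ribonucleotide reductase subunit, stood at 9.90, 9.96 and 10.02 with cyproheptadine, 8.87, 9.18 and 9.14 with DKI and 9.82, 9.66 and 9.74 with vehicle (0.90 ± 0.09, adjusted p = 1.5e-09). Ccna2 (0.72), Mki67 (0.68) and Cdk1 (0.57) followed. Cytosolic ribosomal proteins went the other way, with 44 of 79 genes lower with cyproheptadine and none higher (median -0.25), and 78 of 79 above vehicle with DKI against 23 with cyproheptadine. That count depended on single samples: 10 genes were called without DKI replicate 1, 15 without cyproheptadine replicate 2, 9 without both replicates 1 and 10 without both replicates 2. Many of these genes have processed copies elsewhere in the genome that could share reads.

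Ctgf, a secreted matricellular protein, stood at 10.70, 10.55 and 10.45 with cyproheptadine, 9.51, 9.05 and 8.91 with DKI and 9.59, 9.72 and 9.57 with vehicle (1.41 ± 0.17, adjusted p = 3.7e-08). Cyr61 (0.94) and Col12a1 (0.71) were also higher, 9 of the 23 collagen and matrix genes in all, with 1 lower. Of 20 immediate-early and ERK feedback genes 11 were higher, among them Fosb (0.55), Egr2 (0.53) and Jun (0.52). That count was 7 without DKI replicate 2, 7 without replicates 3 of both compounds and 6 without replicates 2. Myc alone was lower in this list, at 9.36, 9.42 and 9.36 with cyproheptadine, 10.34, 9.86 and 10.08 with DKI and 8.56, 8.80 and 8.65 with vehicle (-0.71 ± 0.12, adjusted p = 7.2e-06). Among 15 hypoxia-inducible targets 9 were higher and 2 lower. They were led by Bnip3, a mitophagy receptor (1.05), Ldha and the collagen prolyl hydroxylase P4ha1 (0.79), while Vegfa lay above vehicle with both compounds (1.18 and 1.06) and did not pass between them (0.12, -0.09 to 0.34).

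Oxidant response genes moved in both directions. Of 19 NRF2 targets 6 were lower with cyproheptadine (31.6%) and 4 higher (21.1%), against 14.7% and 13.9% of all genes tested. Hmox1, which degrades heme, stood at 10.29, 10.24 and 10.14 with cyproheptadine, 11.52, 10.94 and 11.28 with DKI and 9.76, 9.81 and 9.91 with vehicle (-1.02 ± 0.11, adjusted p = 7.1e-09). Fth1, the ferritin heavy chain, differed by -0.76 and was close to vehicle with cyproheptadine (-0.06). Nqo1, a standard NRF2 target, did not pass (-0.05, -0.23 to 0.13). The metallothioneins Mt2 (-1.06) and Mt1 (-0.57) were lower with cyproheptadine. Mt2 lay below vehicle with cyproheptadine (-0.59) and above it with DKI (0.48), and its vehicle samples ranged from 11.004 to 11.601.

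Autophagy genes moved in both directions. Of 37 autophagy genes 6 were higher with cyproheptadine (16.2%) and 9 lower (24.3%), with a median of 0.00. Over all genes tested, 13.9% were higher and 14.7% lower. The count of lower genes was 5 without both replicates 1 and 6 without DKI replicate 1 or without both replicates 3. Sqstm1, the receptor p62, stood at 13.14, 13.15 and 13.27 with cyproheptadine, 14.10, 13.72 and 13.88 with DKI and 12.75, 12.69 and 12.77 with vehicle (-0.71 ± 0.09, adjusted p = 1.3e-07). Map1lc3b, which encodes LC3B, stood at 10.86 to 11.02 in the 6 samples and did not pass (-0.02, -0.13 to 0.09). Another annotated gene, Gm20388, overlaps Map1lc3b on the same strand, and reads could be divided between them. Among 46 lysosomal genes 8 were higher (17.4%) and 2 lower (4.3%), against 13.9% and 14.7% of all genes tested. The count of higher genes was 5 without cyproheptadine replicate 1 or DKI replicate 2. Relative to vehicle, 25 lysosomal genes were higher with cyproheptadine and 25 with DKI. Over all genes tested, 17.5% and 20.4% were higher than in vehicle. Vacuolar ATPase subunits were higher for 8 of 17 genes, led by Atp6v0a1 (0.49), and that count fell to 3 without cyproheptadine replicate 1 or without DKI replicate 3, to 5 and 2 without both replicates 1 and 3, and to 1 in a fit of the 6 samples without a block. Htt, the gene mutated in the line, stood at 7.65, 7.84 and 7.80 with cyproheptadine and 7.56, 7.74 and 7.77 with DKI and did not pass (0.07, -0.09 to 0.22).

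Heat shock chaperones were higher for 5 of 13 genes and lower for 1. The p53 targets were higher for 4 of 18 (22.2%) and lower for 2 (11.1%). The glucose-sensing Mondo axis was higher for 1 of 5 (Mlx, 0.21). Over all genes tested, 13.9% were higher and 14.7% lower. Without cyproheptadine replicate 1, and likewise without DKI replicate 2 or 3, 3 heat shock genes were higher. In the same 3 fits 1 p53 target was higher, against 3, 3 and 2 lower, and with the replicate block 5 were higher and 4 lower. Of 8 genes of the TFEB family and folliculin axis only Rragd passed (-0.33), which makes 12.5% lower. Of 20 interferon-stimulated genes only Bst2 passed (-0.56, adjusted p = 0.047), and it was not called in 7 of the fits that left out a sample or a pair (adjusted p up to 0.343), among them those without cyproheptadine replicate 1 or 2 and without DKI replicate 2 or 3. The count of lower genes was 9 with the replicate block, 4 with a term for each collection slot, 5 without DKI replicate 1, and 0 without cyproheptadine replicate 2, without DKI replicate 2 or without any pair. Relative to vehicle, 18 were lower with cyproheptadine and 14 with DKI, against 18.2% and 21.9% of all genes tested.

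Several genes with large differences belong to none of these lists. Ckb, the brain creatine kinase, was higher with cyproheptadine by 1.43. Ckb stood at 9.50, 9.06 and 9.24 with cyproheptadine, 7.91, 7.77 and 7.83 with DKI and 7.65, 7.75 and 7.91 with vehicle, so the DKI and vehicle samples overlapped. In the other direction, Cdsn, a protein of cornified cell junctions, differed by -1.62 and lay above vehicle with both compounds (1.90 and 3.53). Ugt1a6a (-1.27) shares exons with other Ugt1a genes, and its value could be divided among them. Vcam1, a leukocyte adhesion molecule, stood at 5.69, 5.76 and 5.59 with cyproheptadine, 6.42, 7.07 and 7.22 with DKI and 6.36, 6.17 and 6.21 with vehicle (-1.22 ± 0.16, adjusted p = 1.1e-07). Steap1 (-1.16), a metalloreductase family member, 2410006H16Rik (-1.09), a host of small nucleolar RNAs, Slc7a2 (-1.06), a transporter of cationic amino acids, and Stbd1 (-1.04), a glycogen-binding protein, completed the 10 most negative called genes with a mean level of at least 6.

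Another pair of Group A and Group B compounds, loxapine and meclizine, shares no sample with the first. Unlike the first pair, its samples were not matched by slot. Loxapine was collected on day 1 at time 3, day 2 at time 1 and day 3 at time 2. Meclizine was collected on day 1 at time 2, day 2 at time 3 and day 3 at time 1. A difference between slots can thus enter this contrast and its comparison with the first. Loxapine minus meclizine called 23.6% of genes. Over the 13409 genes, Pearson r between the 2 contrasts was 0.64, given as a description across genes, which are not independent. Of the 3834 genes called between cyproheptadine and DKI, 88.7% had the same sign between loxapine and meclizine, against 70.3% of all genes tested. Calls in the same direction made up 46.8% of the first list of calls and 56.7% of the second. In a single model the difference between the contrasts passed for 508 genes (3.79%), and for 389 with a term for collection time as well as day. That count was 293 without meclizine replicate 2, 298 without DKI replicate 3 and 338 without loxapine replicate 2 or 3.

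Sterol genes were higher with the Group A compound in both contrasts, and most differed more in the first. The median of loxapine minus meclizine was 0.58 for the mevalonate pathway and 0.63 from squalene to cholesterol, and the difference of differences passed for 7 of 9 and 9 of 13 genes. Regulators of the stress response gave medians of -0.17 and -0.44, and Eif2ak3 alone of 23 genes passed the test of the difference (0.40, adjusted p = 0.006). Glycolysis genes had a median of 0.36 in the first contrast and 0.01 in the second, and 7 of 23 passed the test. Interferon-stimulated genes had medians of -0.21 and 0.50, with 13 of 20 higher with loxapine than with meclizine and 4 past the test of the difference.

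**Figure D5:**
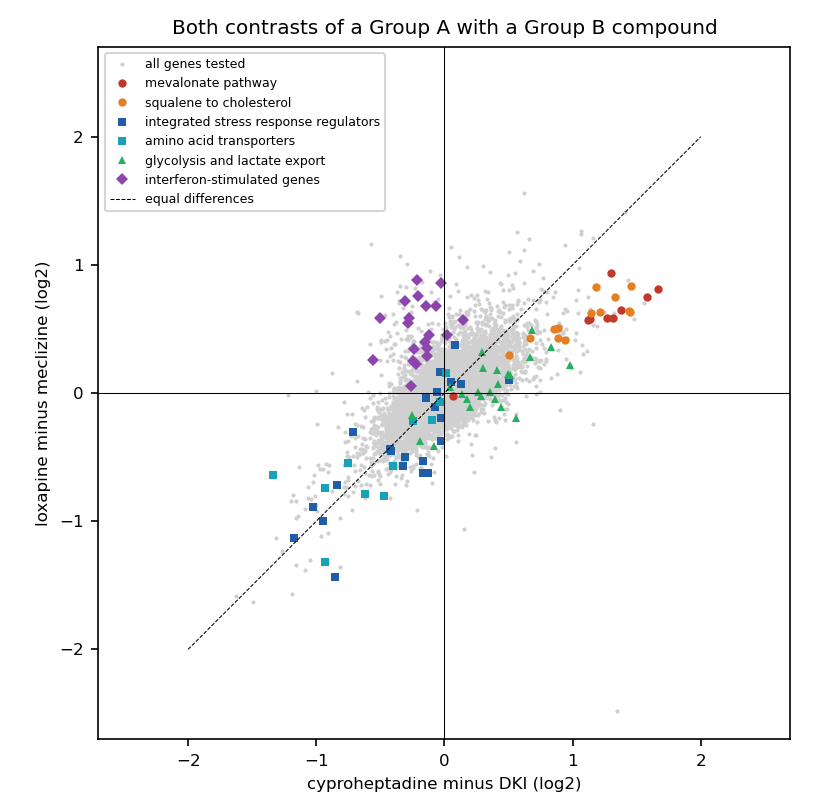
Cyproheptadine minus DKI (x axis, log2) against loxapine minus meclizine (y axis, log2) for 13409 genes, with 6 gene lists coloured and a dashed line where the differences are equal. Sterol genes lie to the right of the dashed line, and interferon-stimulated genes lie above 0 on the y axis, with list medians of -0.21 and 0.50.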

How the data were processed

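RNA-seq was done on STHdhQ111 cells, and 1 deposited table covered all 48 samples of the series. Libraries were poly(A)-selected and directional. The authors trimmed reads with Trimmomatic 0.36, quantified genes with RSEM against GRCm38.p5 and normalized with DESeq2, per the labels and methods; versions of RSEM and DESeq2 are not given in the sources used here. The deposited values are normalized log2 abundances (-2.34 to 18.62), not counts, so depth is unknown and no pseudocount was added.

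Genes with a symbol and a mean of at least 1 over 48 samples were tested (13409 of 18178; 9103 further identifiers had no symbol). A single limma 3.58.1 model with variance trend (R 4.3.3) had a term for each of 16 conditions and one for collection day (30 residual degrees of freedom, median residual SD 0.086), with Benjamini-Hochberg adjustment at 0.05. The fit was also run on simulated data with independent noise and changes planted in cyproheptadine alone. No effect of collection day or slot was simulated, so that run cannot speak for such effects in the real samples. Intervals are 95% intervals of single genes, not adjusted for the number of genes. Tables, sequence matches and figures were made in Python 3.11.15 with pandas 2.3.3, biopython 1.88 and matplotlib 3.10.9. Gene positions are from GENCODE on GRCm38.

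Named genes were the 10 called genes with the largest difference each way (mean of at least 6, 1 sign in all 3 pairs), up to 4 called members per list by size, Htt, Map1lc3b, Hrh1 and the diacylglycerol kinases, and 3 genes each way for the difference between contrasts. Some genes that met this rule are not reported here. Members of a list shown because they did not pass, or to follow a pathway, were chosen after their values were seen. The samples, lists and rules were chosen with earlier results of these data known. Same-numbered cyproheptadine and DKI samples share a collection day and time by their labels, and their deviations from the group means correlated at 0.362, 0.0166 and 0.257. Between differently numbered samples these correlations ran from -0.469 to 0.351, the highest for cyproheptadine replicate 2 with DKI replicate 3. The same-numbered pairs thus did not stand apart throughout. Alternatives changed the minimum level, the collection terms, the replicate block, centring, the variance model and the samples included. Sums of mitochondrial genes with their chromosome 1 copies were chosen after seeing the data. The other conditions of the series, among them vehicle-treated wild-type STHdhQ7 cells, were used only for the shared variance and the collection day term.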

Additional observations from a re-analysis of the deposited data

Results flagged for a closer look

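Cyproheptadine minus DKI differed from loxapine minus meclizine, by a test of the difference itself in the same limma model. Named here are the 3 called genes furthest each way with a mean level of at least 6, and 13 genes in all were lower by more than 1 while none was higher by more than 1. The difference of differences was 0.90 for Insig1, 0.89 for Bnip3 and 0.86 for Mvd, all larger between cyproheptadine and DKI. It was -1.73 for Tgtp1, -1.42 for Cxcl10 and -1.32 for Neurl3. For this difference Tgtp1 lost the call in 5 of the fits that left out a library, where its adjusted p reached 0.0891. Between cyproheptadine and DKI alone, Tgtp1 (-0.57, adjusted p = 0.196) and Cxcl10 (-0.35, adjusted p = 0.225) were not called by limma. Neurl3 was lower there, at -0.87 to -0.51 with a library or pair left out. Loxapine and meclizine were not matched by slot, so a difference between slots can enter these values. The causes were not tested.

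mt-Rnr1, a mitochondrial ribosomal RNA outside the genes tested because its identifier had no symbol, was higher with DKI than with vehicle by 1.53 ± 0.34 (adjusted p = 0.000445 over all identifiers by limma).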

How the results depend on the processing

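No called value of a named gene changed sign under the alternatives run. List medians close to 0 did: that of nuclear complex I went from -0.004 to as high as 0.042, that of complexes II to V from 0.030 to -0.019 and that of the lysosomal genes from 0.019 to -0.012, each with a library or pair left out. The 3834 genes called between cyproheptadine and DKI became 2829 to 4074 under alternatives that left out no library and 2558 to 3488 when a library or a pair was left out, lowest without replicate 1 of both compounds (1314 higher and 1244 lower, against 1867 and 1967). With the replicate block, which pairs samples by their shared collection slot, 3620 genes were called in the 6 samples alone, against 2829 without a block there. The block moved the mitochondrially encoded mRNAs from 7 to 12 calls, the lower interferon-stimulated genes from 1 to 9, the lower p53 targets from 2 to 4 and the lower genes of complexes II to V from 0 to 3, and Cxcl10 and Tgtp1, not called before, passed between the compounds (adjusted p = 0.0328 and 0.00672). Counts against vehicle were 3806 to 4442 for cyproheptadine and 4551 to 5509 for DKI with a library left out. The difference of the contrasts from loxapine minus meclizine called 293 to 559 genes in those fits, against 508: 293 without meclizine replicate 2, 298 without DKI replicate 3 and 338 without loxapine replicate 2 or 3. With terms for collection day and time, and no library left out, that difference called 389 genes. With a minimum mean of 5, which leaves fewer genes, the medians were 0.124 for sterol sensing, -0.020 for the Mondo axis and 0.550 for amine receptors and sigma sites. With 1 library left out, list medians ran from -0.117 to -0.058 for the TFEB axis and from 0.052 to 0.101 for diacylglycerol enzymes. Without replicates 1 of both compounds they were 1.091 for squalene to cholesterol, -0.417 for sterol efflux and 0.098 for diacylglycerol enzymes, without replicates 2 0.221 for sterol sensing and 0.079 for p53 targets, and without replicates 3 0.085 for diacylglycerol enzymes. With a library or pair left out, they ran from 1.027 to 1.175 for squalene to cholesterol, 0.170 to 0.230 for sterol sensing, -0.440 to -0.079 for sterol efflux, 0.583 to 0.687 for fatty acid synthesis, 0.386 to 0.563 for mitochondrially encoded mRNAs, -0.096 to -0.032 for the Mondo axis, -0.125 to -0.048 for the TFEB axis, 0.047 to 0.101 for diacylglycerol enzymes, -0.387 to -0.156 for metallothioneins, 0.047 to 0.160 for p53 targets and -0.445 to -0.010 for interferon-stimulated genes. The cause was not tested. Of 125 named called genes, 14 lost the call under at least 1 alternative that left out no library, and 96 kept it under every alternative. What depth limits could not be given, since the values hold no counts.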
